A study of Mus musculus with 6 samples.

Results

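Kallikreins, clade B serpins, Spink and Wfdc inhibitors and cystatins are families of proteases and inhibitors, and some of their members act in stratified epithelia. The members were chosen by gene symbol alone: the tissue kallikreins (Klk), the Kazal-type inhibitors (Spink), the clade B serpins (Serpinb), the type 1 cystatins or stefins (Stfa and Csta), the type 2 cystatins (Cst), the whey acidic protein domain inhibitors (Wfdc) and Slpi. Of 41253 gene symbols in the files, 97 were members, 26 of them proteases and 71 inhibitors. The inhibitors were 12 Spink, 27 Serpinb, 5 Stfa and Csta, 9 Cst and 18 Wfdc and Slpi genes, and 2 pseudogene symbols were left out.

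Total RNA was sequenced from oesophageal squamous cell carcinomas of C57BL/6 mice, with 3 libraries labelled Ptpro-KO (Ptpro-/-) and 3 labelled WT (Ptpro+/+). Ptpro encodes a receptor-type protein tyrosine phosphatase, and the labels do not say which exons the deletion removes. All mice, including the wild type, drank the carcinogen 4-nitroquinoline 1-oxide (4NQO) for 16 weeks from the age of 6 weeks, and were killed 12 weeks after it ended or earlier on marked weight loss. The labelled concentration is 100 mg/mL, copied as given. The design text gives an age of 34 weeks, while an age tag gives week 6, so the labels disagree. No untreated oesophagus was among the samples, and each library was taken as 1 mouse.

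Tissue kallikreins are secreted serine proteases that are made as inactive precursors and activated outside the cell. In skin and the lining of the mouth and oesophagus they cut the desmosomal proteins that hold the outermost cells together, and the Kazal domains of Spink5 (LEKTI) hold KLK5, KLK7 and KLK14 in check. Stefins and cystatins inhibit lysosomal cysteine proteases, clade B serpins act mostly inside cells on serine or cysteine proteases, and Slpi and its Wfdc relatives are secreted with mucosal fluids.

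Ptpro, the targeted gene, went against the labels. It had 1094, 1824 and 1921 reads in Ptpro-KO-labelled libraries, against 174, 9 and 67 reads in WT-labelled ones. That is 30.3, 42.8 and 50.6 CPM (counts scaled to 1000000 reads) in Ptpro-KO-labelled libraries, against 5.05, 0.359 and 2.39 CPM in WT-labelled ones. The log2 fold change was 3.97 (SE 0.85), with an adjusted p of 0.0617 in edgeR's quasi-likelihood test. Reads outside a deleted part would not check the deletion, and every direction below is therefore between libraries labelled Ptpro-KO and libraries labelled WT.

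The libraries held 35551442, 39827467 and 35845461 reads under the label Ptpro-KO, and 37595506, 25745240 and 29406034 under the label WT. All 15 squamous epithelial markers, which define the labelled tissue, had reads under both labels, and all 15 had negative log2 fold changes, 9 of them past the threshold. Their summed RPKM (reads scaled by transcript length and library total) was 13560 to 16610 in Ptpro-KO-labelled libraries, against 37680 to 39970 in WT-labelled ones. The 8 markers of simple epithelium summed to 563 to 1127 RPKM in Ptpro-KO-labelled libraries, against 17.9 to 43.0 RPKM in WT-labelled ones, and 4 of the 8 rose. The 10 macrophage markers found summed to 635 to 994 RPKM in Ptpro-KO-labelled libraries, against 88.8 to 376 RPKM in WT-labelled ones, with 10 of 10 fold changes positive and 0 past the threshold in edgeR (9 at an unadjusted p under 0.05, 9 in DESeq2). Over all genes tested, 1.81% rose and 2.29% fell in edgeR, and 13.7% were higher at an unadjusted p under 0.05. DESeq2 called 9.76% of its genes higher. No marker of these 3 lists was at 0 in all libraries of a label. Stomach markers summed to 19520 RPKM in the library labelled Ptpro-KO replicate 3, against 40.3 and 5.94 RPKM in the other two of that label and at most 0.807 RPKM in WT-labelled ones, where Gkn2, Pgc, Gif and Atp4b were at 0. Skeletal muscle markers ranged from 132 to 8032 RPKM under the label Ptpro-KO and from 46.5 to 7050 RPKM under the label WT. In bulk tissue, fewer cells of a type and less RNA per cell cannot be told apart.

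Of the 97 members, 53 had enough reads to be tested, and 11 of the 53 fell at an adjusted p under 0.05, where 2.29% of all 17663 genes tested fell. The 11 were Klk8, Klk10, Klk11, Klk12, Klk14, Spink5, Csta1, Stfa2, Cst6, Serpinb5 and Wfdc5. None of the 53 rose in edgeR, where 1.81% of all genes tested rose. At an unadjusted p under 0.05, 8 members were higher and 25 lower, against backgrounds of 13.7% and 11.3%. DESeq2, which called 9.76% of its genes higher and 8.57% lower, called 8 members higher and 23 lower. The median log2 fold change was -1.06 over the 53 members and 0.03 over all genes tested. It was -1.33 over the 11 proteases tested, 5 of which fell, and -0.36 over the 42 inhibitors tested, 6 of which fell.

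The calls depended on single libraries. The count of members that fell was 3 without Ptpro-KO replicate 1, 0 without Ptpro-KO replicate 2 and 9 without Ptpro-KO replicate 3. It was 3 without WT replicate 1 and 0 without WT replicate 2 or WT replicate 3. From the transcripts, 2 libraries labelled Ptpro-KO and 1 labelled WT were read as female, so sex was not balanced between the labels. With a term for sex in edgeR, 4 of the 11 passed, Klk10, Klk12, Spink5 and Csta1. The other 7 had adjusted p values of 0.0554 to 0.102 and kept their sign. In the 3 fits with no call, edgeR called 0 genes of the whole table, and 21 or 22 members were lower and 5 to 7 higher at an unadjusted p under 0.05. Of the other members, 14 had no read in any library, and 30 had too few reads, or reads in too few libraries, to be tested. Of those 30, 24 had at most 10 reads in any library. The 6 above that were Klk1, Klk1b5, Klk1b24, Cst8, Serpinb9f and Wfdc15b.

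**Figure D1:**
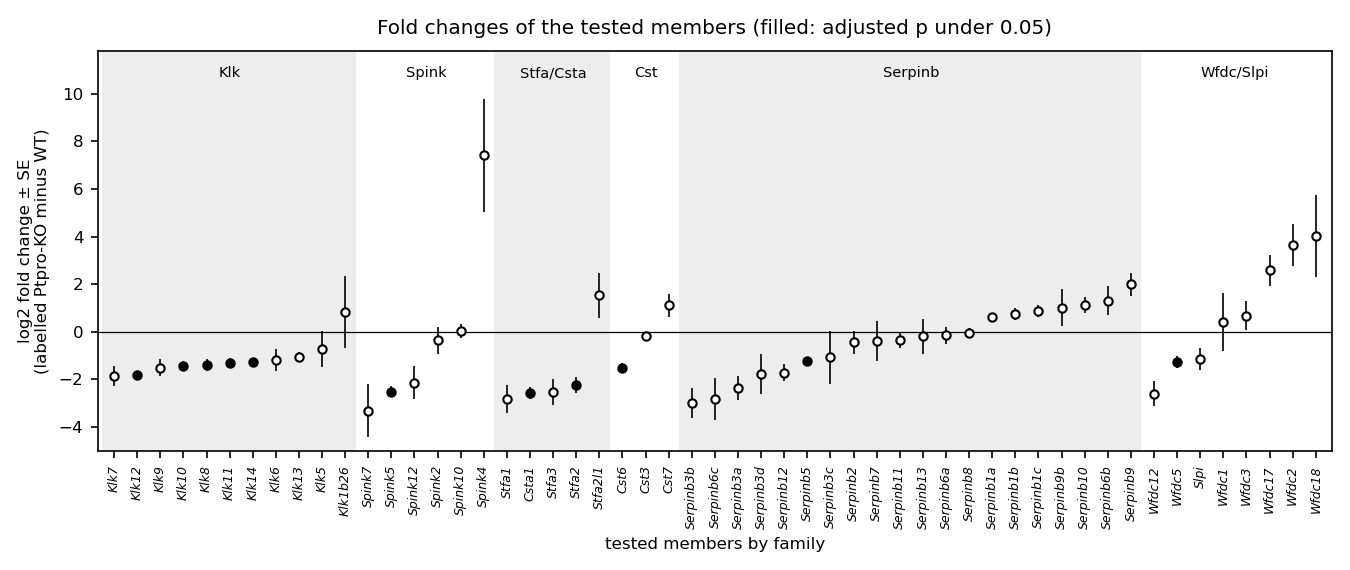
Log2 fold change (label Ptpro-KO minus label WT, n = 3 libraries each) with its standard error for the 53 tested members, by family. Filled points have an adjusted p under 0.05: all 11 lie below 0, and 10 of the 11 Klk points do, whereas Serpinb and Wfdc points lie on both sides.

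The 12 kallikreins outside the Klk1 subfamily lie together on chromosome 7 (GRCm38, chr7:43690418-43939639), from Klk14 to Klk15. Klk4 and Klk15 had no read in any library. The other 10 were all tested and all had negative log2 fold changes, as had 46.7% of all genes tested, from -1.86 for Klk7 to -0.74 for Klk5. In 9 of the 10 the 3 libraries labelled Ptpro-KO lay below the 3 labelled WT, which held for 15.7% of all genes tested.

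Klk12, a trypsin-like kallikrein (chr7:43768897-43773585, plus strand), had the smallest adjusted p of the kallikreins. Its level was 18.3, 17.3 and 21.5 CPM in Ptpro-KO-labelled libraries, against 71.7, 71.2 and 58.2 CPM in WT-labelled ones. The groups lay far apart and varied little within a label, and the log2 fold change was -1.82 (SE 0.14, adjusted p = 0.0125, edgeR). Klk12 fell together with 4 other Klk genes of this block. The sequence upstream of its RefSeq start is therefore shown, as an example of the 26 Klk promoters in the RefSeq table. In the 250 bases before the start sites, none of the 26 had the letters TGANTCA (an AP-1 type site), 1 had TATAAA and 1 had AACNGGTT (a grainyhead type site), searched on both strands. Of all 27025 genes in the table, 7.82%, 14.3% and 2.0% had them. A match of letters is not evidence of binding, and no match says only that these letters are not in this window. The RefSeq start of Klk12 lies inside the gene position given above, so most of its window lies within that position. The window of Klk12 is chr7:43768850-43769099 of GRCm38.p6, on the plus strand, 5′ to 3′, and holds none of the 3 motifs.
Klk12: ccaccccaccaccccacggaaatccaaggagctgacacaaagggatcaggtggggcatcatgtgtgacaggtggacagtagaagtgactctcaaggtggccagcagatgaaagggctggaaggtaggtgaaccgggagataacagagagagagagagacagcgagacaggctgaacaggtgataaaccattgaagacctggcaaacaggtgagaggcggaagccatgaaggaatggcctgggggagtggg

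Klk10 was the most abundant kallikrein per length, with 42.4, 41.9 and 56.3% of the summed Klk RPKM in Ptpro-KO-labelled libraries, against 46.4, 48.8 and 50.7% in WT-labelled ones. Its level was 174, 145 and 230 CPM in Ptpro-KO-labelled libraries, against 508, 494 and 483 CPM in WT-labelled ones. All 3 libraries labelled Ptpro-KO were below all 3 labelled WT, and Klk10 fell by 1.43 on the log2 scale (SE 0.19, adjusted p = 0.0253, edgeR). Its share of the family overlapped between the labels, so the sum over the family moved much as Klk10 did. All Klk genes together had 309, 274 and 320 RPKM in Ptpro-KO-labelled libraries, against 741, 730 and 672 RPKM in WT-labelled ones.

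Klk14, a trypsin-like protease that activates other kallikreins, had 26.4, 28.3 and 26.5 CPM in Ptpro-KO-labelled libraries, against 69.7, 74.6 and 51.4 CPM in WT-labelled ones (log2 fold change -1.27, SE 0.16, adjusted p = 0.0240, edgeR). Klk11 had 29.1, 29.1 and 19.9 CPM in Ptpro-KO-labelled libraries, against 75.5, 55.2 and 65.0 CPM in WT-labelled ones, and fell by 1.33 on the log2 scale (adjusted p = 0.0325). Klk8, known as neuropsin and also active in the epidermis, had 47.5, 33.8 and 23.7 CPM in Ptpro-KO-labelled libraries, against 80.8, 104 and 91.1 CPM in WT-labelled ones. It fell by 1.39 on the log2 scale (SE 0.27, adjusted p = 0.0490). The groups did not overlap for any of these 3 genes, and Klk8 was the nearest to the threshold. Of the 50-base windows of the Klk8 transcript, 21.7% also lie in the transcript 2310002F09Rik on the other strand, which Klk14 overlaps to a like extent. No source says whether counting used strand, so reads of these overlapping genes cannot be told apart.

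Klk7, the chymotrypsin-like protease that cuts corneodesmosin, had the largest kallikrein fold change but more spread. It had 23.4, 8.07 and 17.1 CPM in Ptpro-KO-labelled libraries, against 74.0, 51.5 and 51.2 CPM in WT-labelled ones (log2 fold change -1.86, SE 0.40, adjusted p = 0.0623, edgeR). Klk13 had 39.1, 35.5 and 23.9 CPM in Ptpro-KO-labelled libraries, against 81.5, 65.8 and 58.3 CPM in WT-labelled ones (log2 fold change -1.06, adjusted p = 0.0601). The labels did not overlap for either gene, and neither passed the threshold. The same held for Klk9 (-1.52, adjusted p = 0.0778) and Klk6 (-1.18, adjusted p = 0.186). Klk5, the trypsin-like protease at the head of the epidermal cascade, was the exception: its 2.74, 0.493 and 1.82 CPM in Ptpro-KO-labelled libraries overlapped the 2.58, 1.12 and 4.73 CPM in WT-labelled ones.

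**Figure D2:**
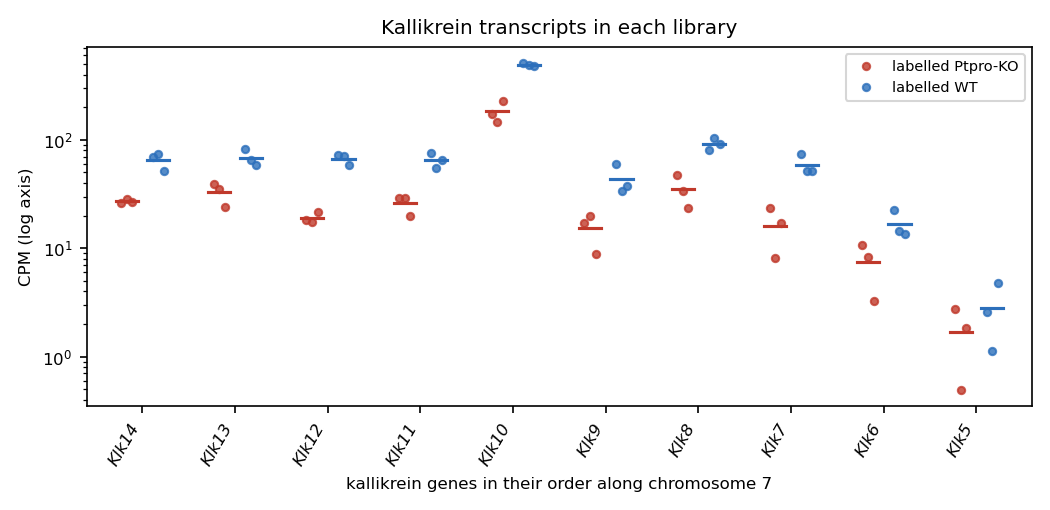
Level of 10 kallikreins in each library, in CPM on a log axis, in their order along chromosome 7. Points are libraries and lines the means of 3, and the labels overlap only in Klk5.

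The Klk1 and Klk1b genes, the glandular kallikreins of salivary gland, kidney and pancreas, lie next to that block (chr7:43950664-44229618). Of these 14 genes, 4 had no read, and 9 had too few reads, or reads in too few libraries, to be tested. Klk1 had 8, 0 and 286 reads in Ptpro-KO-labelled libraries, against 4, 1 and 3 reads in WT-labelled ones. Klk1b5 had 4, 0 and 88 reads in Ptpro-KO-labelled libraries, against 1, 0 and 0 in WT-labelled ones, and Klk1b24 had 2, 1 and 21 reads in Ptpro-KO-labelled libraries, against 0, 0 and 0 in WT-labelled ones. Nearly all reads of these 3 genes were thus in Ptpro-KO replicate 3, the library with the stomach markers. Of the 10 exocrine pancreas markers, Cela1 had 42, 26 and 2862 reads in Ptpro-KO-labelled libraries, against 7, 3 and 3 in WT-labelled ones, and made up 72.4 of the 75.6 RPKM of the list in Ptpro-KO replicate 3. Cel had 3, 2 and 87 reads in Ptpro-KO-labelled libraries, against 0, 0 and 0 in WT-labelled ones. Cpb1 had 3, 0 and 22 reads in Ptpro-KO-labelled libraries, against 1, 4 and 5 in WT-labelled ones. Amy2a5 and Prss2 had 0 reads in Ptpro-KO replicate 3, Ctrb1 had 1, and Cpa1 and Cela2a had 2 each. Salivary gland markers summed to 16.0, 29.5 and 24.95 RPKM in Ptpro-KO-labelled libraries, against 13.7, 4.29 and 8.995 RPKM in WT-labelled ones. Of this, Aqp5 alone had 3.55, 16.8 and 19.4 RPKM in Ptpro-KO-labelled libraries, against 0.0365, 0.141 and 0.217 RPKM in WT-labelled ones. Of the 6 salivary markers tested, Aqp5 was the 1 that rose, and 0 fell. Prol1, Smr2 and Dcpp2 had no read in any library. The part of gland or stomach tissue in the Klk1 reads was not tested. Klk1b26, the 1 gene tested, did not pass (adjusted p = 0.776). Between 10.1 and 33.9% of the 50-base windows of the 14 transcripts also occur in another gene, against 0 to 0.427% for the other 12 Klk genes, so the assignment of reads among Klk1 and Klk1b genes is uncertain.

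Spink5, whose product LEKTI inhibits KLK5, KLK7 and KLK14, fell. It lies on chromosome 18 (43963235 to 44022501, plus strand) and had 336, 267 and 305 CPM in Ptpro-KO-labelled libraries, against 1421, 1577 and 2250 CPM in WT-labelled ones. The log2 fold change was -2.53 (SE 0.22, adjusted p = 0.0125, edgeR). Per length, Spink5 was 1.93, 2.05 and 1.99 times the summed RPKM of Klk5, Klk7 and Klk14 in Ptpro-KO-labelled libraries, against 2.99, 3.70 and 6.39 times in WT-labelled ones. The ratio was thus lower in each library labelled Ptpro-KO than in any labelled WT; it was not tested.

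No other Spink gene passed the test. Spink12 had 1.38, 1.17 and 4.77 CPM in Ptpro-KO-labelled libraries, against 6.44, 17.7 and 8.26 CPM in WT-labelled ones (log2 fold change -2.14, adjusted p = 0.133). Spink7, which is known in humans as an oesophageal inhibitor (ECRG2), had 2, 15 and 0 reads in Ptpro-KO-labelled libraries, against 22, 33 and 67 reads in WT-labelled ones (adjusted p = 0.138, edgeR). Neither passed, although the groups did not overlap in either gene. Spink4, an inhibitor of goblet cells in the gut, had 10, 13 and 734 reads in Ptpro-KO-labelled libraries, against 0, 2 and 1 in WT-labelled ones, and Ptpro-KO replicate 3, with its stomach markers, held nearly all of them (adjusted p = 0.130). Spink2 and Spink10 overlapped between the labels, and the remaining 6 Spink genes had at most 10 reads in any library.

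The stefins, inhibitors of cathepsins and components of the cornified envelope, lie on chromosome 16 (chr16:36119946-36455392). Of the 5 genes, 2 fell, where 2.29% of all genes tested fell, and 4 lay below in every library labelled Ptpro-KO, where 15.7% of all genes did. Csta1, stefin A (minus strand, chr16:36119946-36131241), had 54.1, 47.1 and 35.3 CPM in Ptpro-KO-labelled libraries, against 227, 236 and 352 CPM in WT-labelled ones (log2 fold change -2.58, SE 0.25, adjusted p = 0.0132, edgeR). Its upstream window (chr16:36131190-36131439, minus strand, GRCm38.p6) is shown because Csta1 had the largest fall of the 11, and it holds none of the 3 motifs.
Csta1: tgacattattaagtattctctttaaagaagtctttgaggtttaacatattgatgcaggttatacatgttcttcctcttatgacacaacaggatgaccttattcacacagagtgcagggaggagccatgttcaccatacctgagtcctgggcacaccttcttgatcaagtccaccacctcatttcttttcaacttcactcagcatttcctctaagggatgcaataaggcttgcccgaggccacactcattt

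Stfa2 had 2.38, 1.46 and 1.77 CPM in Ptpro-KO-labelled libraries, against 6.06, 12.0 and 8.47 CPM in WT-labelled ones, and fell by 2.24 on the log2 scale (SE 0.34, adjusted p = 0.0333). Stfa1 had 30.8, 12.2 and 17.7 CPM in Ptpro-KO-labelled libraries, against 89.0, 90.7 and 252 CPM in WT-labelled ones (log2 fold change -2.83, SE 0.57, adjusted p = 0.0548). Stfa1 and Stfa3 (-2.56, adjusted p = 0.0608) had larger estimated fold changes than Stfa2, with larger standard errors, and did not pass. Stfa2l1 had a log2 fold change of 1.53 (adjusted p = 0.373), with 1.27, 1.41 and 0.185 CPM in Ptpro-KO-labelled libraries, against 0.290, 0.638 and 0.0712 CPM in WT-labelled ones, and the groups overlapped. Stfa2l1 is also on the list of 14 neutrophil markers, of which 11 were tested, 9 with a positive fold change, with a median of 0.75. Of these, Retnlg, rose (adjusted p = 0.0470, edgeR). Their summed RPKM of 532, 2619 and 178 under the label Ptpro-KO overlapped the 335, 329 and 863 under the label WT, and Ltf alone made up 2525 RPKM in Ptpro-KO replicate 2 and BC100530 838 RPKM in WT replicate 3. The part of neutrophils in the stefin values was not tested. Stfa1 shares 22.5% of its 50-base windows with other genes, with BC100530 as the largest partner (19.4%). Stfa2 shares 15.9%, with Stfa2l1 as the largest partner (14.7%), and Csta1 shares 0.791%. Another counting could thus split reads differently between Stfa1 and BC100530 and between Stfa2 and Stfa2l1. BC100530, itself on the neutrophil list, had a log2 fold change of -2.94 (adjusted p = 0.0539, edgeR).

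Among the type 2 cystatins, Cst3 (cystatin C, made by most cells) supplied 97.4 to 97.9% of the summed Cst RPKM in Ptpro-KO-labelled libraries, against 95.1 to 95.8% in WT-labelled ones. It had 171, 149 and 143 CPM in Ptpro-KO-labelled libraries, against 201, 139 and 182 CPM in WT-labelled ones (log2 fold change -0.17, SE 0.17, adjusted p = 0.565), and the groups overlapped. Cst6 (cystatin E/M), which inhibits legumain and cathepsins in cornifying epithelium, had 14.1, 13.1 and 10.5 CPM in Ptpro-KO-labelled libraries, against 38.4, 28.7 and 41.4 CPM in WT-labelled ones. It fell by 1.52 on the log2 scale (SE 0.19, adjusted p = 0.0244, edgeR). The leukocyte cystatin Cst7 had 1.11, 0.352 and 0.896 CPM in Ptpro-KO-labelled libraries, against 0.435, 0.319 and 0.320 CPM in WT-labelled ones (adjusted p = 0.221), and 6 other Cst genes had too few reads or none.

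Of a list of 12 cysteine proteases, most belong to the papain and legumain families that cystatins inhibit, and most had positive fold changes. All 12 were tested and 0 passed in edgeR. At an unadjusted p under 0.05, 7 were higher and 1 lower, against 13.7% and 11.3% of all genes tested. The 1 lower gene was Casp14 (log2 fold change -0.80), a caspase outside these families. DESeq2 called 6 of the list higher and 0 lower, against 9.76% and 8.57% of its genes. Their median log2 fold change was 0.76, and their summed RPKM was 1009, 860 and 682 in Ptpro-KO-labelled libraries, against 414, 389 and 332 in WT-labelled ones. Ctss, cathepsin S of antigen-presenting cells, had 301, 303 and 192 CPM in Ptpro-KO-labelled libraries, against 75.7, 19.3 and 32.0 CPM in WT-labelled ones (log2 fold change 2.65, adjusted p = 0.0566, edgeR). The macrophage markers were higher in the same libraries, and their part in the cathepsin values was not tested. Ctsb (log2 fold change 0.49, adjusted p = 0.0936) and Ctsl (0.78, adjusted p = 0.174) were, with Ctss, the most abundant of these proteases per length.

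The clade B serpins sit in a pair of clusters, whose fold changes mostly had opposite signs, a difference that was not tested. The 12 genes on chromosome 1 (chr1:106861173-107610484) were all tested, and 11 had negative fold changes, as had 46.7% of all genes tested. In edgeR 1 fell, where 2.29% of all genes tested fell. In every library labelled Ptpro-KO, 5 lay below and 1 above, as did 15.7% and 16.8% of all genes tested. At an unadjusted p under 0.05, 1 was higher and 4 lower, against 13.7% and 11.3%. DESeq2 called 1 higher and 4 lower, against 9.76% and 8.57% of its genes. The median log2 fold change was -0.76. Of the 15 genes on chromosome 13 (chr13:32842092-34002794), 8 were tested: 6 had positive fold changes, as had 53.3% of all genes tested, 4 lay above in every library labelled Ptpro-KO, as did 16.8% of all genes tested, and 0 passed (4 higher and 1 lower at an unadjusted p under 0.05; DESeq2 called 4 higher and 1 lower). The median was 0.82. The chromosome 13 genes supplied 34.7, 39.3 and 32.6% of the summed Serpinb RPKM in Ptpro-KO-labelled libraries, against 13.4, 17.5 and 15.7% in WT-labelled ones. These shares did not overlap. The summed RPKM of the chromosome 13 genes itself overlapped, at 182 to 351 in Ptpro-KO-labelled libraries against 197 to 272.2 in WT-labelled ones, whereas that of the chromosome 1 genes was 662, 504 and 376 in Ptpro-KO-labelled libraries, against 1766, 925 and 1266 in WT-labelled ones.

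Serpinb5 (maspin, a serpin of epithelial cells known as a tumour suppressor in mammary tissue; chr1:106861173-106883348, plus strand) was the gene of this family that fell. It had 139, 176 and 190 CPM in Ptpro-KO-labelled libraries, against 406, 368 and 429 CPM in WT-labelled ones (log2 fold change -1.25, SE 0.15, adjusted p = 0.0231, edgeR). Serpinb3a, related to the squamous cell carcinoma antigens of humans, had 227, 170 and 78.3 CPM in Ptpro-KO-labelled libraries, against 1230, 576 and 648 CPM in WT-labelled ones (log2 fold change -2.37, SE 0.49, adjusted p = 0.0588). It made up 14.1, 13.5 and 9.17% of the summed Serpinb RPKM in Ptpro-KO-labelled libraries, against 34.2, 30.9 and 25.5% in WT-labelled ones. Its groups did not overlap on either scale, but the spread within each label was wide.

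Serpinb12, a serpin of surface epithelium, had 292, 214 and 167 CPM in Ptpro-KO-labelled libraries, against 960, 445 and 825 CPM in WT-labelled ones (log2 fold change -1.73, SE 0.35, adjusted p = 0.0560). Serpinb3b (-3.02, adjusted p = 0.0590) was also lower in every library labelled Ptpro-KO, while Serpinb3c (-1.07, adjusted p = 0.598) and Serpinb2 (plasminogen activator inhibitor 2; -0.45, adjusted p = 0.607) overlapped. Serpinb3a to Serpinb3d share 12.2 to 15.0% of their windows with other genes, so their separate values are uncertain. Serpinb10 alone on chromosome 1 had a positive fold change, with 66.1, 150 and 94.5 CPM in Ptpro-KO-labelled libraries, against 58.9, 48.3 and 35.5 CPM in WT-labelled ones (1.12, adjusted p = 0.118). Serpinb10 shares 6.97% of its windows with the neighbouring Serpinb2, which shares 10.4% with Serpinb10, so their separate values are uncertain too.

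On chromosome 13, Serpinb9, an inhibitor of granzyme B, had 52.3, 46.5 and 15.0 CPM in Ptpro-KO-labelled libraries, against 10.6, 8.61 and 9.54 CPM in WT-labelled ones. All 3 libraries labelled Ptpro-KO were above all 3 labelled WT, and the log2 fold change was 1.99 (SE 0.47, adjusted p = 0.0736, edgeR). Without Ptpro-KO replicate 3, where edgeR called 253 genes of the whole table higher, it was 2.36 with an adjusted p of 0.024. Serpinb6b then passed too (1.74, adjusted p = 0.0482). With any other single library left out, no member passed as higher. Over all alternatives, the log2 fold change ran from 1.605 to 2.36 for Serpinb9 and from 0.69 to 1.74 for Serpinb6b. Their adjusted p values reached 0.239 and 0.522. The inhibitor of neutrophil proteases Serpinb1a had 161, 177 and 132 CPM in Ptpro-KO-labelled libraries, against 125, 88.4 and 93.9 CPM in WT-labelled ones (0.61, adjusted p = 0.113). Serpinb1b and Serpinb1c were likewise above without passing. Serpinb6a, the most abundant gene of this cluster, had 335, 252 and 131 CPM in Ptpro-KO-labelled libraries, against 322, 211 and 266 CPM in WT-labelled ones (-0.15, adjusted p = 0.829), and 24.4% of its 50-base windows also lie in Nqo2 on the other strand. Serpinb6c had the lowest fold change on chromosome 13 (-2.83, adjusted p = 0.125), with overlapping groups.

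The upstream windows of 4 serpins are shown because the clusters differed in the letters they hold. Of the 11 chromosome 1 genes with a promoter in the RefSeq table, 7 (63.6%) had TGANTCA and 7 had TATAAA within 250 bases of the start. Of the 14 chromosome 13 genes, 0 had TGANTCA and 1 had TATAAA, and over all genes the shares were 7.82% and 14.3%. Paralogues share sequence, so the genes of a cluster are not independent. On chromosome 1, TGANTCA was held by Serpinb10 (log2 fold change 1.12), Serpinb8 (-0.06), Serpinb11 (-0.35), Serpinb7 (-0.40), Serpinb2 (-0.45), Serpinb5 (-1.25) and Serpinb12 (-1.73). Serpinb3a (-2.37), Serpinb3b (-3.02), Serpinb3c (-1.07) and Serpinb3d (-1.78) did not hold it. The part of these letters in the levels was not tested. The windows are Serpinb5 at chr1:106860925-106861174, Serpinb12 at chr1:106934199-106934448, Serpinb2 at chr1:107511173-107511422 and Serpinb9 at chr13:33004291-33004540. All are on the plus strand of GRCm38.p6, 5′ to 3′, from RefSeq, with matches to TGANTCA or TATAAA in capitals. Serpinb9 has none.
Serpinb5: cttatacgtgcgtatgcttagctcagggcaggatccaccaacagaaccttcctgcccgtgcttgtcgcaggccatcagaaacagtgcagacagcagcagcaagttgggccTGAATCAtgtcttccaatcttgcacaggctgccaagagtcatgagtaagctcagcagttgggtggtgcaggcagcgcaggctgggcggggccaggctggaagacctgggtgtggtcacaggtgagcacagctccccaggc
Serpinb12: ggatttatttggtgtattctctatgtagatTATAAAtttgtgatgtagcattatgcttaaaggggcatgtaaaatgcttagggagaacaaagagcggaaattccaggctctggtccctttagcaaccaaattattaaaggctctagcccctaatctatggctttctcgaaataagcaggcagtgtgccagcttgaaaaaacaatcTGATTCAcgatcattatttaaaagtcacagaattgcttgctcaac
Serpinb2: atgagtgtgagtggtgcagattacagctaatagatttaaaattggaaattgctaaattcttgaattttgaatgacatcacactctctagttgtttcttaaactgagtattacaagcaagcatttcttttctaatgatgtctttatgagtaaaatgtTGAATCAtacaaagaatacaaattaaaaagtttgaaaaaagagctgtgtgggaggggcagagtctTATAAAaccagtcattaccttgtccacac
Serpinb9: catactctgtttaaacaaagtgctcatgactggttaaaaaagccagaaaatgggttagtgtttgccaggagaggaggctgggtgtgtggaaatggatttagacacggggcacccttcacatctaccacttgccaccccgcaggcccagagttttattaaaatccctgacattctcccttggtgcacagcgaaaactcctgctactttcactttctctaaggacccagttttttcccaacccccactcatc

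**Figure D3:**
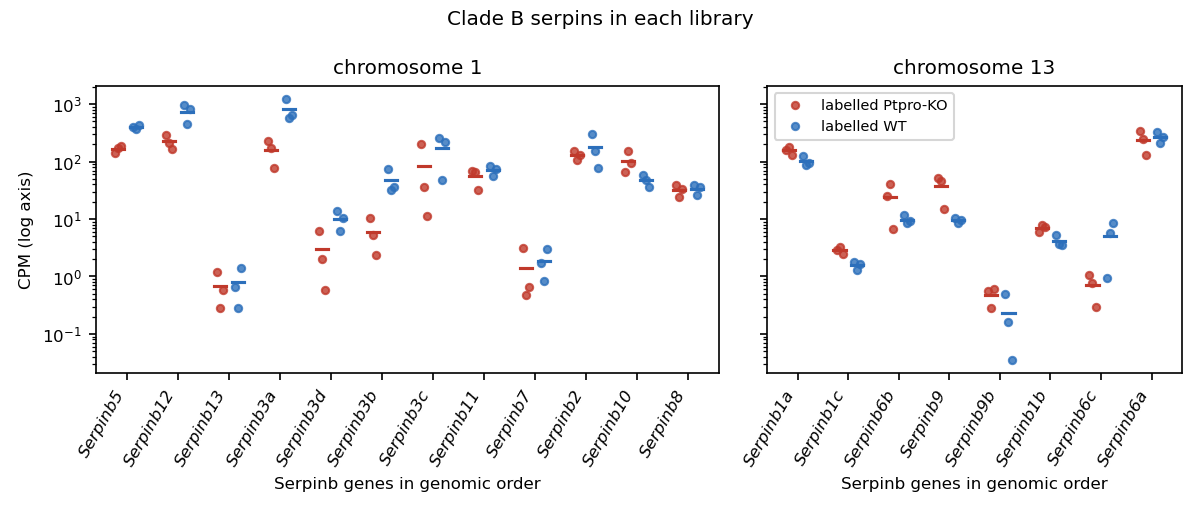
Level of the 20 tested Serpinb genes in each library, in CPM on a log axis, for the clusters on chromosome 1 and chromosome 13 in genomic order. Points are libraries and lines means of 3: most chromosome 1 genes lie lower under the label Ptpro-KO, and Serpinb9, Serpinb1a, Serpinb1b and Serpinb1c on chromosome 13 lie higher.

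Of the whey acidic protein domain inhibitors, 8 of 18 were tested. In edgeR 1 fell and 0 rose, against 2.29% and 1.81% of all genes tested. At an unadjusted p under 0.05, 2 were higher and 3 lower, against 13.7% and 11.3%. DESeq2 called 3 higher and 2 lower, against 9.76% and 8.57% of its genes. Slpi, the secretory leukocyte protease inhibitor, was the most abundant per length. It had 498, 467 and 144 CPM in Ptpro-KO-labelled libraries, against 993, 753 and 730 CPM in WT-labelled ones, with no overlap (log2 fold change -1.16, SE 0.47, adjusted p = 0.196). Wfdc5 fell, with 20.1, 22.1 and 12.1 CPM in Ptpro-KO-labelled libraries, against 48.3, 38.6 and 44.9 CPM in WT-labelled ones (-1.28, SE 0.24, adjusted p = 0.0490). Wfdc12, which lies beside it, had 10.9, 12.1 and 3.95 CPM in Ptpro-KO-labelled libraries, against 67.8, 31.2 and 65.3 CPM in WT-labelled ones (-2.61, SE 0.52, adjusted p = 0.0520).

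No member of this family rose in edgeR, but Wfdc2, Wfdc17 and Wfdc18 had the highest fold changes. Wfdc2, known as HE4 and made by simple and glandular epithelia, had 134, 341 and 26.4 CPM in Ptpro-KO-labelled libraries, against 12.9, 14.0 and 13.7 CPM in WT-labelled ones. The groups did not overlap, but the libraries labelled Ptpro-KO differed widely (log2 fold change 3.63, SE 0.89, adjusted p = 0.0782, edgeR). Without Ptpro-KO replicate 3 the value was 4.13 with an adjusted p of 0.0285. Over all alternatives it ran from 2.57 to 4.13, with adjusted p values up to 0.252. The simple epithelium markers were higher in the same 3 libraries, and their part in Wfdc2 was not tested. Wfdc17, made by macrophages, had 30.3, 25.5 and 9.41 CPM in Ptpro-KO-labelled libraries, against 6.47, 2.51 and 1.92 CPM in WT-labelled ones (2.57, SE 0.64, adjusted p = 0.0827), and the macrophage markers were higher in the same libraries, their part not being tested. Its neighbour Wfdc18 had 0.360, 54.6 and 3.08 CPM in Ptpro-KO-labelled libraries, against 1.83, 0.877 and 0.819 CPM in WT-labelled ones, so 1 library carried the value, and the log2 fold change of 4.03 was 0.52 without Ptpro-KO replicate 2. Slpi supplied 70.0, 47.7 and 70.5% of the summed RPKM of the family in Ptpro-KO-labelled libraries, against 88.7, 91.4 and 86.6% in WT-labelled ones, and Wfdc2 supplied 19.4, 36.2 and 13.4% in Ptpro-KO-labelled libraries, against 1.21, 1.75 and 1.69% in WT-labelled ones.

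**Figure D4:**
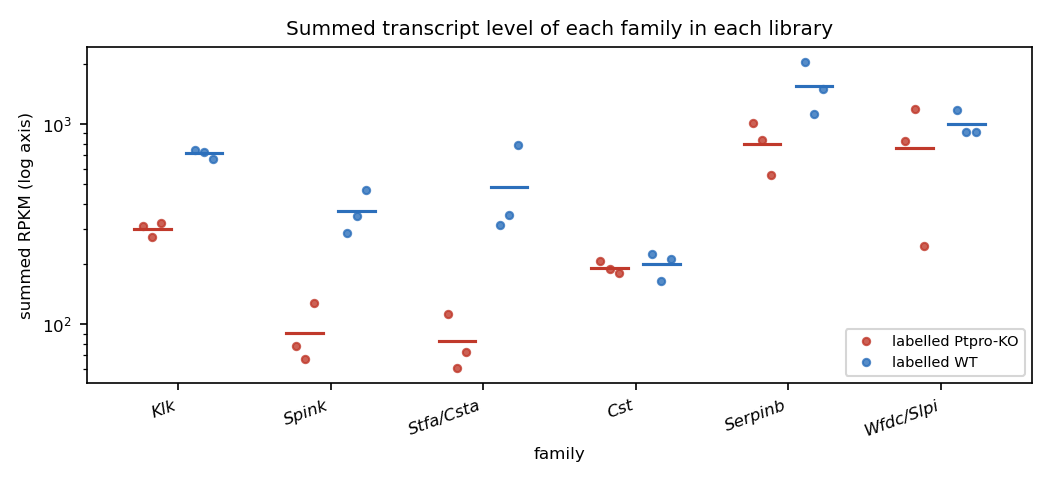
Summed RPKM of each family in each library on a log axis, with the libraries labelled Ptpro-KO left of those labelled WT and lines for means of 3. Klk, Spink, Stfa and Csta, and Serpinb sums do not overlap between the labels, whereas Cst and Wfdc with Slpi do.

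Summed levels of proteases and of inhibitors were both lower in each library labelled Ptpro-KO than in any labelled WT. Summed over the 71 inhibitors, the level was 2236, 2345 and 1186 RPKM in Ptpro-KO-labelled libraries, against 4032, 2902 and 3887 RPKM in WT-labelled ones. The ratio of inhibitor to protease RPKM was 7.24, 8.55 and 3.71 in Ptpro-KO-labelled libraries, against 5.44, 3.98 and 5.78 in WT-labelled ones, and overlapped. The proteases here are kallikreins only, while the inhibitors include stefins and cystatins, which inhibit cysteine proteases. The ratio is therefore not a balance between kallikreins and their own inhibitors. All members took 0.356, 0.346 and 0.230% of the reads in Ptpro-KO-labelled libraries, against 0.742, 0.586 and 0.735% in WT-labelled ones.

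Because the 15 squamous markers were lower in the same libraries, each member was also expressed as its log2 CPM minus the mean log2 CPM of those markers, a measure chosen after the data were seen and given without a test. The mean of the markers was 10.25 in Ptpro-KO-labelled libraries and 11.59 in WT-labelled ones. Of the members, 44 had at least 10 reads in every library. All 10 kallikreins among them overlapped between the labels on this scale, with a median difference of -0.06. Of the 11 members that fell, 8 overlapped, among them Serpinb5, Cst6 and Wfdc5, and 3 stayed lower in every library labelled Ptpro-KO.

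Those 3 were Spink5, Csta1 and Stfa2. Relative to the markers, Spink5 stood at -1.93, -2.21 and -1.90 in Ptpro-KO-labelled libraries, against -1.12, -0.86 and -0.55 in WT-labelled ones. Csta1 stood at -4.56, -4.72 and -5.01 in Ptpro-KO-labelled libraries, against -3.77, -3.61 and -3.22 in WT-labelled ones. Stfa1, Stfa3, Serpinb3a, Serpinb3b and Wfdc12 were also below, so that 8 of the 44 were below and 13 above. Of all 15535 genes with that many reads, 0.457% were below and 87.9% above, with a median difference of 1.34, since subtracting markers that are lower under the label Ptpro-KO moves every gene up by that difference. Klk10, in contrast, stood at -2.87, -3.09 and -2.31 in Ptpro-KO-labelled libraries, against -2.61, -2.54 and -2.77 in WT-labelled ones.

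**Figure D5:**
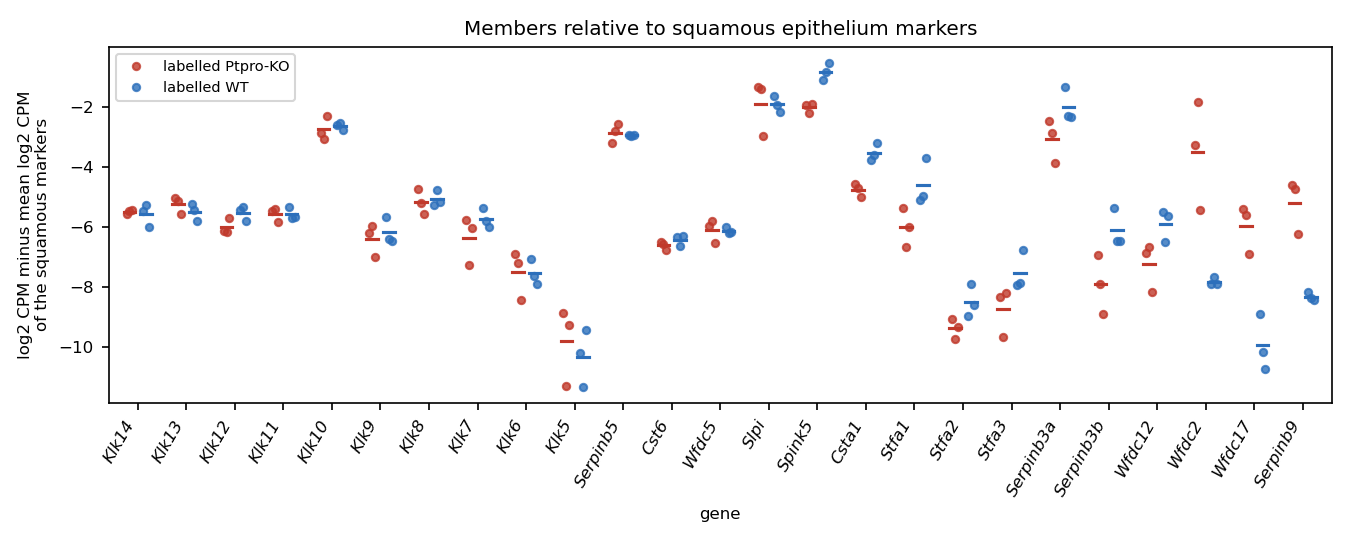
Log2 CPM of 25 members minus the mean log2 CPM of 15 squamous markers, per library, with lines for means of 3. Kallikreins overlap between the labels on this scale, whereas Spink5, Csta1, Stfa1 to Stfa3, Serpinb3a, Serpinb3b and Wfdc12 lie lower and Wfdc2, Wfdc17 and Serpinb9 higher under the label Ptpro-KO.

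Genes that act with the members were read from 5 further lists of 93 genes, 74 of them tested, of which 4 rose and 6 fell, where 1.81% and 2.29% of all genes tested did. The count that rose was 2 without Ptpro-KO replicate 3 or WT replicate 1 and 0 without each of the other four libraries. The count that fell was 4 without Ptpro-KO replicate 1 or WT replicate 1, 7 without Ptpro-KO replicate 3 and 0 without each of the other three. Among the proteins at the epithelial surface that kallikreins cut or signal through, 9 of 10 were tested, 4 fell and 1 rose. The desmosomal cadherin Dsg1b had 195, 229 and 232 CPM in Ptpro-KO-labelled libraries, against 903, 953 and 1292 CPM in WT-labelled ones (log2 fold change -2.26, SE 0.19, adjusted p = 0.0125, edgeR). Dsg1a (-2.85), Dsc1 (-2.58) and Cdsn, corneodesmosin (-1.44), fell as well. F2rl1, the receptor PAR2 that trypsin-like proteases switch on by cutting it, rose by 1.97 on the log2 scale (SE 0.35, adjusted p = 0.0430), with 46.1, 51.7 and 30.7 CPM in Ptpro-KO-labelled libraries, against 15.8, 9.64 and 7.37 CPM in WT-labelled ones.

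Of the membrane-anchored and other epithelial serine proteases, 16 of 19 were tested, 2 fell and 0 rose, with a median log2 fold change of 0.04. At an unadjusted p under 0.05, 2 were higher and 3 lower, against 13.7% and 11.3% of all genes tested. DESeq2 called 2 higher and 3 lower, against 9.76% and 8.57% of its genes. Tmprss4 had 41.2, 67.7 and 48.9 CPM in Ptpro-KO-labelled libraries, against 196, 209 and 192 CPM in WT-labelled ones (-1.92, SE 0.20, adjusted p = 0.0145). Tmprss13 fell by 1.60 on the log2 scale (adjusted p = 0.0125). St14, matriptase, which activates kallikrein precursors in skin, had a log2 fold change of 0.45 (adjusted p = 0.119).

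Of inhibitors outside the member families, 26 of 34 were tested, and 3 rose and 0 fell in edgeR. At an unadjusted p under 0.05, 11 were higher and 2 lower, against 13.7% and 11.3% of all genes tested. DESeq2 called 8 higher and 2 lower, against 9.76% and 8.57% of its genes. The wide-range inhibitor A2m had 2.13, 7.46 and 8.06 CPM in Ptpro-KO-labelled libraries, against 0.0870, 0 and 0.107 CPM in WT-labelled ones (adjusted p = 0.0304). Serpina3g, a serpin of blood cells, had 29.3, 30.1 and 19.7 CPM in Ptpro-KO-labelled libraries, against 4.61, 1.87 and 2.56 CPM in WT-labelled ones, and rose by 3.12 on the log2 scale (SE 0.40, adjusted p = 0.0245). Tfpi2 rose by 2.04 (adjusted p = 0.0423). Of the leukocyte and mast cell serine proteases, 11 of 18 were tested and 0 passed in edgeR (2 higher and 0 lower at an unadjusted p under 0.05, 1 higher in DESeq2). Their summed RPKM overlapped, at 37.8, 17.4 and 54.4 in Ptpro-KO-labelled libraries against 23.7, 49.4 and 19.2 in WT-labelled ones.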

How the data were processed

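The submitters' processing notes name Bowtie 0.12.2 and the genome build mm10. Strand and the handling of reads with several map positions are not given in the sources. The authors' deposited files hold whole read counts per Ensembl transcript, with RPKM values that scale those counts by transcript length and library total. A further deposited table holds FPKM values per gene, and its columns were tied to libraries by the code in each sample's own file name. The table's 2 further columns were not used, and Csta1 has no row there.

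Counts were summed per gene symbol (100249 transcripts, 97463 of them in GENCODE M21, which gave positions). Genes with at least 10 counts in enough libraries and 15 in total (filterByExpr) were kept, 17663 in all. After TMM scaling, the label Ptpro-KO was set against the label WT by the quasi-likelihood test (edgeR 4.0.16, R 4.3.3). P values were adjusted over all genes tested (Benjamini-Hochberg, threshold 0.05), with a common biological coefficient of variation of 0.398. CPM uses TMM library sizes, and RPKM was used to set genes side by side. DESeq2 1.42.0 and limma 3.58.1 gave alternatives, and only the edgeR fit was also run on simulated data.

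Named were members that passed, up to 5 abundant members per family, the 3 highest and lowest fold changes among proteases and among inhibitors, and passing or abundant genes of the further lists, of which the text gives a part. Other names were chosen after their values were seen. The members and all lists were chosen with earlier results of these data known. Promoter windows came from RefSeq (GRCm38.p6), which had 79 of the 97 members. Gene positions came from GENCODE M21, so a RefSeq start can lie inside the printed gene position. Depth was 25745240 to 39827467 reads per library, so spread between libraries rather than counting error limits all but rare transcripts. Differences between mice and between the tissue sampled cannot be told apart in that spread. The p-values set the difference between the labels against the spread within a label.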

Additional observations from a re-analysis of the deposited data

How the results depend on the processing

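With 3 libraries per label, edgeR called 320 genes higher and 405 lower, 0 and 11 members, and 4 and 6 genes of the further lists. DESeq2 called 1682 and 1478 genes, 8 and 23 members, and 19 higher genes of the further lists. Limma on log2(FPKM + 0.1) called 7 of the further lists higher. With a term for sex, read from the transcripts, 64 and 122 genes, 5 members lower and 0 further genes higher were called. With the replicate block, 133 and 104 genes, 3 members lower and 2 further genes higher were called; of the 11 members, Klk12 and Spink5 kept their call and the other nine had adjusted p values of 0.0531 to 0.0789. The replicate numbers were not taken as pairs: deviations of same-numbered libraries correlated at 0.539, 0.08 and -0.243, and not every pair exceeded 0.1. Leaving out 1 library at a time gave 0 to 253 genes higher and 0 to 243 lower, 0 to 3 members higher and 0 to 9 lower, and 0 to 2 further genes higher and 0 to 7 lower. The cause of these shifts was not tested, beyond the loss of residual degrees of freedom that a smaller fit brings.

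The 11 members that fell kept a negative sign under every alternative that gave them a value. Signs turned for genes far from the threshold: Klk1b26 was -0.10 with limma-voom and -0.43 on log2(FPKM + 0.1), Stfa2l1 -0.05 on log2(FPKM + 0.1), and Wfdc1 -0.18 with the sex term. With 1 library left out, the log2 fold change ran from -1.55 to 1.42 for Klk1b26, -0.90 to 0.52 for Serpinb13, -0.82 to 0.15 for Serpinb2, -0.51 to 0.14 for Serpinb6a, -1.74 to 0.11 for Serpinb7, -0.24 to 0.10 for Serpinb8, -0.15 to 0.21 for Spink10, -0.71 to 0.56 for Spink2, -0.19 to 0.89 for Wfdc1 and -0.17 to 1.02 for Wfdc3. Read depth limits the members with few reads in every library, above all most Klk1b and the rare Spink genes. Klk1, Klk1b5 and Klk1b24 had nearly all their reads in Ptpro-KO replicate 3.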
